A study of Arabidopsis thaliana with 14 samples.

Results

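Poly(A) site use, N6-methyladenosine (m6A) and CPSF70 binding were examined on 10 nuclear genes of photosystem I in Arabidopsis thaliana seedlings: LHCA1 (AT3G54890), LHCA2 (AT3G61470), LHCA3 (AT1G61520), LHCA4 (AT3G47470), PSAD1 (AT4G02770), PSAD2 (AT1G03130), PSAE1 (AT4G28750), PSAF (AT1G31330), PSAG (AT1G55670) and PSAH2 (AT1G52230). The genes were chosen by their names and loci, and all 10 were found among the 9975 genes with poly(A) tags in all 4 poly(A) libraries. The whole series holds 14 samples in 7 groups of 2, and 6 of these groups touch the results below. Poly(A) sites were sequenced in 12-day seedlings of the wild type Col0 and of the cpsf70 mutant. CPSF70-bound RNA came from an anti-FLAG pull-down in 12-day seedlings of a CPSF70 overexpression line, and m6A was mapped in 14-day Col0 seedlings, so the binding and m6A data lie in other plants than the mutant comparison. RNA-seq of 12-day Col0 and cpsf70 seedlings was deposited as a table of 168 genes, which lists 0 of the 10 genes. The labels name neither the lesion in the mutant nor the promoter of the overexpression line. They do not say whether replicates came from separate plantings, so p-values measure no more than the spread between these samples. For gene totals and for sites that spread was pooled over all genes or all sites, and is not that of the gene or site itself.

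Photosystem I is the chlorophyll-protein complex of the thylakoid membrane that passes electrons from plastocyanin in the lumen to ferredoxin in the stroma. Its core subunits PsaA and PsaB are encoded in the chloroplast, while the proteins of the PSA and LHCA genes studied here are encoded in the nucleus and imported. In eukaryotes mRNAs are cleaved and polyadenylated by a complex that includes the CPSF subunits. CPSF70 is the longer of the proteins made from the Arabidopsis CPSF30 locus and carries a YTH domain, a fold that binds m6A. A gene whose transcripts are cleaved at more than 1 place can give RNAs that end at a distal site, near the end of the gene, or at a proximal site inside it.

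The CPSF30 locus, AT1G30460, which encodes CPSF70, stood in the authors' deposited table at 5.58 and 4.87 FPKM in Col0 against 0.542 and 0.593 FPKM in cpsf70. The seedling shoot markers RBCS1A, CA1 and RCA summed to 8098 to 11064 TPM per poly(A) library, and the root markers PHT1;1, TIP2;3 and PHT1;4 to 47.1 to 62.3 TPM, with TIP2;3 listed in Col0 replicate 1 alone. Of the flower and seed markers, AG stood at 4.46 TPM in Col0 replicate 1 and CRA1 at 0.257 and 5.17 TPM in the cpsf70 replicates, and the others (AP3, SEP3, CRU3 and SESA4) were listed in no library. The low values of the poly(A) tables step by 0.164 to 0.319 TPM. These steps put the depth at 3.14 and 3.25 times 1e6 reads in the Col0 replicates. In the cpsf70 replicates they put it at 3.88 and 6.09 times 1e6 reads. Of the values below 30 TPM, 74.9% to 82.1% lay within 0.05 of a whole read, and the rest are fractions, so the step itself may be a fraction of a read. The 10 genes together held 3.46% and 2.67% of the listed tags in the Col0 replicates and 3.94% and 3.52% in the cpsf70 replicates.

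The amount of poly(A) tags asks how much mRNA of each gene reached a poly(A) tail. A poly(A) tag counts 1 transcript end whatever the length of the transcript, so tag levels in TPM, the authors' level scaled to the size of the library, can be set side by side between genes. LHCA1 had the highest level, with rank 7 among 9975 genes by its mean over the 4 libraries, followed by LHCA4 (rank 12), LHCA2 (21), PSAE1 (28), PSAF (36), LHCA3 (50), PSAH2 (67), PSAG (80), PSAD2 (95) and PSAD1 (135). None of the 10 gene totals passed the test between genotypes. Of their changes 8 were above 0 and 2 below, beside 52% above 0 among all genes. Among the 10% of genes with the most tags, to which the 10 genes belong, 61.0% were above 0. In bulk seedlings, a change in the number of photosynthetic cells and a change in RNA per cell cannot be told apart.

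The LHCA genes encode the light-harvesting antenna of photosystem I, a belt of chlorophyll-binding proteins on one side of the core. LHCA1 stood at 6787 and 5335 TPM in the Col0 replicates and at 7337 and 6483 TPM in the cpsf70 replicates. LHCA4, the protein that pairs with LHCA1 and holds the far-red chlorophylls, stood at 5154 and 3617 TPM in Col0 against 5142 and 4781 TPM in cpsf70. In both genes the genotypes overlapped, with the Col0 replicates farther apart than the genotype means. LHCA2 overlapped too, at 4318 and 3410 TPM in Col0 against 4517 and 3600 TPM in cpsf70. LHCA3, which pairs with LHCA2 in the antenna, had 1631 and 1236 TPM in Col0 against 1878 and 1839 TPM in cpsf70. Both cpsf70 libraries of LHCA3 lay above both Col0 libraries, and the mean was 1.30-fold that of Col0. The log2 changes of the LHCA genes lay between 0.07 for LHCA2 and 0.39 for LHCA3.

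The PSA genes encode subunits of the core. PSAD and PSAE form, with the chloroplast-encoded PsaC, the stromal ridge where ferredoxin docks. PSAD1 had 540 and 404 TPM in Col0 against 690 and 654 TPM in cpsf70, a ratio of means of 1.42. Its paralog PSAD2 went the other way, with 1021 and 793 TPM in Col0 against 779 and 624 TPM in cpsf70, a ratio of 0.774. Neither gene overlapped between genotypes, and the log2 changes were 0.52 ± 0.45 (SE, n = 2 libraries per genotype) for PSAD1 and -0.37 ± 0.45 for PSAD2. PSAE1 differed little, with 2908 and 2290 TPM in Col0 against 2913 and 2486 TPM in cpsf70.

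PSAF lies on the lumen side, where plastocyanin docks, and had 2550 and 2106 TPM in Col0 against 2677 and 2135 TPM in cpsf70. PSAG, a membrane subunit beside the antenna, had 1111 and 926 TPM in Col0 against 1333 and 1120 TPM in cpsf70, and the cpsf70 libraries were the higher pair by a narrow margin. PSAH2, a small membrane subunit at the side where mobile antenna complexes of photosystem II can attach, had 1623 and 1261 TPM in Col0 against 1199 and 1019 TPM in cpsf70. Both cpsf70 libraries of PSAH2 lay below both Col0 libraries, with a log2 change of -0.37 ± 0.45 (SE). This separation rests on clusters listed in 1 genotype alone, chiefly an end cluster with 203 and 155 TPM that is listed in Col0 and not in cpsf70. Over clusters that overlap one of the other genotype, PSAH2 had 1417 and 1106 TPM in Col0 against 1184 and 985 TPM in cpsf70, and the genotypes overlapped. With PSAD2 it was 1 of the 2 genes below 0.

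In 5 of 10 genes (LHCA3, PSAD1, PSAD2, PSAG and PSAH2) the genotypes did not overlap, beside 36.3% of all 9975 genes, and without clusters of 1 genotype alone this held in 4 of 10, PSAH2 being lost. limma with Benjamini-Hochberg adjustment over all genes gave an adjusted p of 0.9995 for each of the 10, and 0 of 10 had an unadjusted p below 0.05. Over all genes the same fit called 0.251% higher and 1.52% lower in cpsf70. The median log2 change was 0.13 for the 10 genes and 0.02 for all genes. limma gave a single standard error of 0.45 to all genes. The smallest change of any gene with an unadjusted p below 0.05 was 0.88 on the log2 scale, and the smallest that was called was 1.5, so changes below that size were not detectable here. Without Col0 replicate 2, the library with the lowest level of each of these genes except PSAD2 and PSAH2, the median of the 10 was -0.075.

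**Figure D1:**
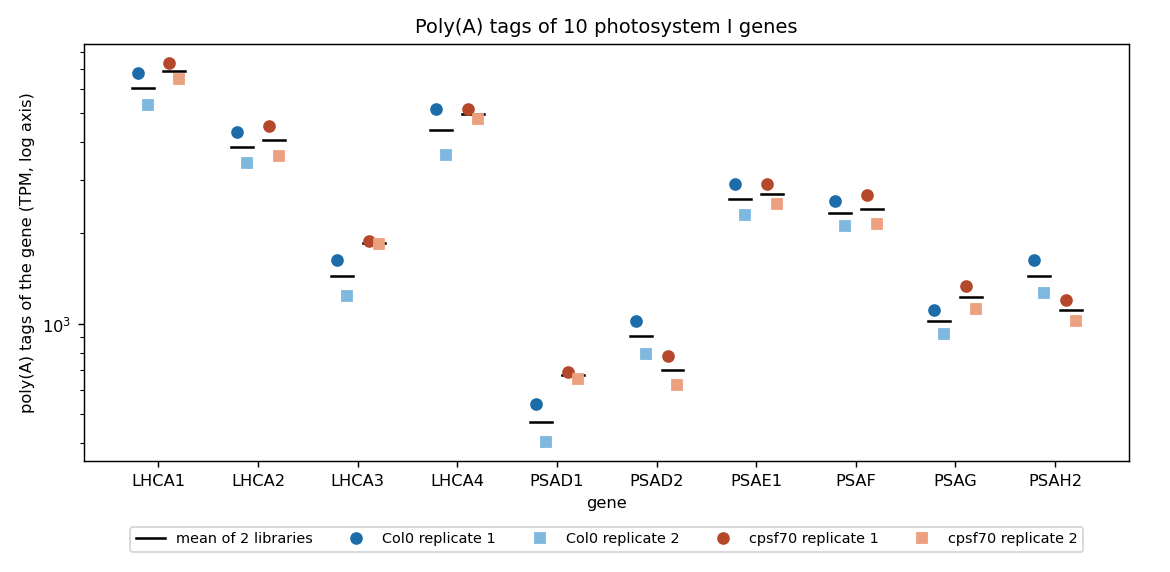
Poly(A) tags of each gene in TPM (log axis) in the 4 libraries; points are libraries and bars the means of 2. LHCA3, PSAD1 and PSAG lie higher and PSAD2 and PSAH2 lower in both cpsf70 libraries than in both Col0 libraries, PSAH2 only with the cluster listed in Col0 alone, and none passed the test.

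The genes had many poly(A) clusters each, from 8 to 30 per library. The main end, defined as the cluster midpoint with the most tags within 25 nt on either side, lay between 1 nt (PSAH2) and 299 nt (LHCA2) before the annotated end of the gene. Whether a site lies in an exon, an intron or a UTR was not analysed here. Clusters were joined into a site where at most 24 nt lay between them. This merged the whole set of PSAD1, PSAD2 and PSAG clusters listed in all 4 libraries into 1 site of 828, 709 and 810 nt, and left 2 or more sites in the other 7 genes.

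Of the 27 sites, 23 had a change above 0 and 4 below, beside 53.9% above 0 among all sites. In limma with Benjamini-Hochberg adjustment 0 of 27 passed, beside 0.615% of all 13668 sites called higher and 1.59% called lower. In the same fit 7 had an unadjusted p below 0.05 and were higher in cpsf70, beside 4.32% of all sites. All 7 lay upstream of the main end. The share over all sites includes main ends, so it is not one of upstream sites alone. For the ratio of upstream to end tags given below, 78.5% of 1668 genes had a change above 0. In limma 25.2% of them had an unadjusted p below 0.05 in that direction. The lowest adjusted p of the 27 sites was 0.0771, for the PSAH2 site at chr1:19455129-19455253 (all coordinates TAIR10). limma gave a single standard error of 0.49 to all sites, so this p does not measure the spread of the site itself. With the replicate number as a block in limma its adjusted p was 0.358. This site had 11.8 and 3.69 TPM in Col0 against 15.4 and 29.4 TPM in cpsf70. A second PSAH2 site at chr1:19454923-19455045 had 9.88 and 11.1 TPM in Col0 against 24.7 and 32.0 TPM in cpsf70. Both PSAH2 sites were low in both Col0 libraries and higher in both cpsf70 libraries. They passed the threshold with robust eBayes or with a pseudocount of 3 TPM, and with the pseudocount so did a site of PSAF and a site of LHCA4.

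Site use was taken from the 2 sites with the most tags in a gene, the distal one over the proximal one, as log2((distal TPM + 1) / (proximal TPM + 1)). All 7 genes with 2 sites had a value below 0 for cpsf70 minus Col0, which is a larger share of the proximal site in cpsf70. Of all 2010 genes tested, 71.5% had a value below 0. The change was largest in PSAH2, where the distal site at chr1:19455331-19455692 had 1601 and 1246 TPM in Col0 against 1159 and 958 TPM in cpsf70. The proximal site was the one at chr1:19454923-19455045 given above. For PSAH2 the change of site use was -1.77 ± 0.40 (SE, log2), with an adjusted p of 0.143 in limma with Benjamini-Hochberg adjustment. Over clusters that overlap one of the other genotype it was -1.01, with an adjusted p of 0.312, a smaller size than that of PSAF.

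The next change was that of PSAF, whose proximal site at chr1:11215577-11215982 had 93.2 and 56.0 TPM in Col0 against 126 and 198 TPM in cpsf70, while its distal site had 2457 and 2050 TPM in Col0 against 2552 and 1936 TPM in cpsf70. The distal PSAF values overlapped and the proximal values did not, and the change of site use was -1.13 ± 0.47 (SE, log2). In LHCA4 the proximal site at chr3:17494563-17494847 had 305 and 143 TPM in Col0 against 339 and 530 TPM in cpsf70, with a change of site use of -0.95 ± 0.46 (SE, log2). The other changes were -0.84 for LHCA2, -0.80 for LHCA1, -0.61 for LHCA3 and -0.39 for PSAE1.

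In limma 0 of the 7 genes passed the adjusted threshold and 1, PSAH2, had an unadjusted p below 0.05 toward the proximal site, beside 14.5% of all genes. Over all genes limma called 0% toward the distal site, where 72 of 2010 had an unadjusted p below 0.05, and 0.448% toward the proximal site. In 4 of 7 genes (LHCA1, LHCA4, PSAF and PSAH2) the genotypes did not overlap, beside 55.9% of all genes. The median change was -0.84 for the 7 genes, -0.40 for all genes and -0.63 for the 588 tested genes in the 10% of genes with the most tags, to which the 10 genes belong. The sign depended on how clusters were joined: around midpoints, LHCA1 had 0.83, LHCA3 3.53, LHCA4 0.081 and PSAE1 0.083, and LHCA3 passed with an adjusted p of 0.00555 in limma. For LHCA3 this join takes apart an end whose bounds were drawn differently in the 2 genotypes.

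**Figure D2:**
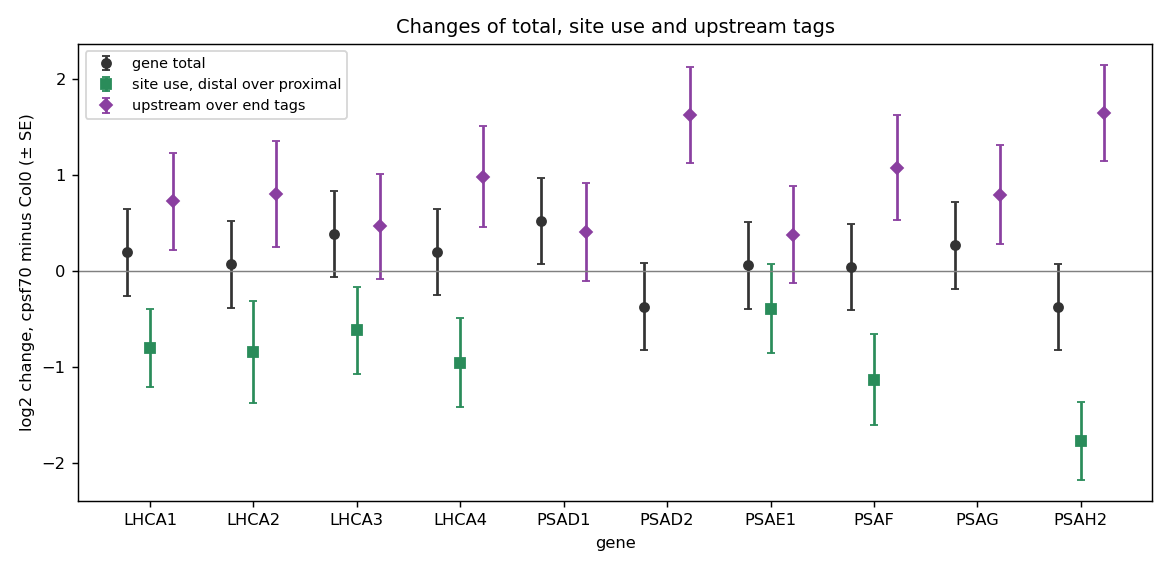
log2 change, cpsf70 minus Col0, with its standard error from limma (2 libraries per genotype) for the gene total, the site use and the ratio of upstream to end tags. Gene totals lie on both sides of 0, the 7 values of site use lie below 0 and the 10 values of upstream tags above 0; none passed the adjusted threshold.

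Since joined sites spanned most of some genes, tags were also split by distance: those more than 100 nt upstream of the main end, and those within 100 nt of it or beyond. This measure was chosen after the data had been seen. The share of upstream tags separated PSAD1 from the rest, with 42.3% and 39.7% in Col0 and 38.9% and 57.3% in cpsf70. In Col0 the other 9 genes had between 3.45% (PSAH2) and 23.0% (LHCA3). PSAD1, the member with the lowest tag level, thus kept a much smaller part of its tags at the main end than its paralog PSAD2, with 7.35% and 5.95% upstream in Col0. That contrast holds in each of the 4 libraries, and in cpsf70 PSAD2 had 13.7% and 23.5%.

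PSAH2 and PSAD2 had the largest changes of upstream tags. PSAH2 had 4.38% and 3.45% of its tags upstream in Col0 and 8.47% and 15.1% in cpsf70. In these genes both cpsf70 libraries lay above both Col0 libraries. The log2 change of upstream over end tags was 1.65 ± 0.50 (SE) for PSAH2 and 1.62 ± 0.50 for PSAD2, and the adjusted p in limma was 0.0986 and 0.101. They are also the 2 genes whose totals lay lower in cpsf70. The tags at the main end of PSAH2 stood at 1552 and 1218 TPM in Col0 against 1098 and 866 TPM in cpsf70. Those of PSAD2 stood at 946 and 749 TPM in Col0 against 680 and 487 TPM in cpsf70. The upstream tags of PSAH2 stood at 71.1 and 43.5 TPM in Col0 against 102 and 154 TPM in cpsf70, and those of PSAD2 at 75.1 and 47.4 TPM against 107 and 150 TPM. In both genes the 2 cpsf70 libraries had fewer end tags and more upstream tags than the 2 Col0 libraries. For the end tags of PSAH2 this rests on the cluster listed in Col0 alone: over clusters that overlap one of the other genotype they stood at 1349 and 1062 TPM in Col0 against 1096 and 862 TPM in cpsf70 and overlapped. The end tags of PSAD2 did not overlap there either, at 925 and 732 TPM against 673 and 484 TPM, and the upstream tags of both genes stayed higher in both cpsf70 libraries. On these clusters the log2 change of upstream over end tags was 1.24 for PSAH2 and 1.51 for PSAD2, with an adjusted p of 0.329 and 0.318 in limma. In the other 8 genes the end tags of the genotypes overlapped.

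PSAF had 10.5% and 6.71% of its tags upstream in Col0 and 11.5% and 22.6% in cpsf70, LHCA4 14.3% and 9.79% against 15.7% and 27.6%, and PSAG 16.7% and 12.2% against 17.2% and 28.9%. In these genes the genotypes did not overlap, but cpsf70 replicate 1 lay close to Col0 replicate 1. LHCA1 (6.62% and 4.4% against 6.59% and 11.3%), LHCA2 (8.23% and 5.01% against 7.43% and 15.3%), LHCA3 (23.0% and 16.4% against 17.9% and 34.0%) and PSAE1 (9.98% and 8.85% against 8.71% and 16.1%) overlapped, as did PSAD1. Only cpsf70 replicate 2 stood above both Col0 libraries in these genes.

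In limma 0 of 10 genes passed, and 2 (PSAH2 and PSAD2) had an unadjusted p below 0.05, beside 25.2% of all genes in that direction. Among all 1668 genes tested, 3.48% were called higher and 0.420% lower. All 10 changes were above 0, beside 78.5% of all genes. In 5 of 10 the genotypes did not overlap, beside 63.7% of all genes. The median change was 0.80 for the 10 genes, 0.66 for all genes and 0.96 for the 10% of genes with the most tags, of which 91.3% lay above 0. The libraries as a whole were ordered alike: the median upstream share over all genes was 19.9% and 18.1% in Col0 and 23.1% and 31.0% in cpsf70, and that of the 10 genes 10.2% and 7.78% in Col0 and 12.6% and 23.1% in cpsf70. Without cpsf70 replicate 2 the median change of the 10 genes was 0.31, and LHCA3 (-0.15), PSAD1 (-0.13) and PSAE1 (-0.12) lay below 0. The cpsf70 tables list the same 29896 clusters, with a lowest value of 3 TPM in replicate 2 and 0 in replicate 1, so the cpsf70 list follows the floor of the library with the most upstream tags, while each Col0 table has a floor of its own at 3 TPM. On the 10 genes, 19 of 210 clusters of cpsf70 replicate 1 were below 3 TPM, 37.3 TPM in sum. With clusters of at least 3 TPM in every library the median change of the 10 genes was 0.79. Of the 4 libraries cpsf70 replicate 2 also had the greatest depth, put at 6.09 times 1e6 reads. The part of the list, of the depth and of this library in the result was not tested further.

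**Figure D3:**
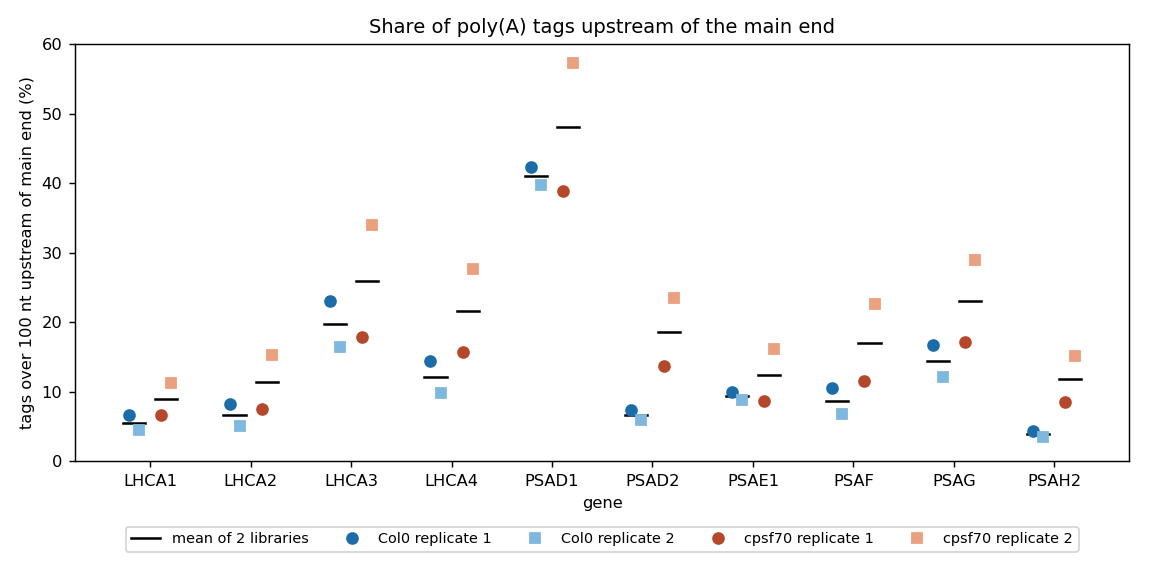
Percent of the tags of each gene that lay over 100 nt upstream of its main end; points are libraries and bars the means of 2. cpsf70 replicate 2 is the highest library in all 10 genes, and cpsf70 replicate 1 is above both Col0 libraries in LHCA4, PSAD2, PSAF, PSAG and PSAH2.

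Most upstream tags were spread thinly, and a few strong upstream clusters stood out. The strongest belonged to LHCA4 and lay 1149 nt before the main end, at chr3:17494594-17494640 in Col0 with 237 and 109 TPM, and at chr3:17494565-17494640 in cpsf70 with 295 and 431 TPM. Joined over both genotypes it held 4.88% and 3.16% of the LHCA4 tags in Col0 and 5.74% and 9.0% in cpsf70. LHCA1 had its strongest upstream cluster 430 nt before the main end, at chr3:20340037-20340077 in Col0 with 132 and 77.0 TPM, and in cpsf70 at chr3:20340028-20340077 with 186 and 204 TPM. The strongest upstream cluster of PSAE1, 108 nt before the main end, had 72.7 and 44.3 TPM in Col0 against 77.8 and 90.9 TPM in cpsf70, and that of PSAD1, 149 nt before it, 58.3 and 42.6 TPM against 69.8 and 91.6 TPM. In PSAG the strongest one had 38.9 and 29.2 TPM in Col0 against 54.8 and 49.7 TPM in cpsf70, and the lowest value was that of PSAD2, with 15.0 and 7.70 TPM against 21.9 and 27.2 TPM. When clusters of both genotypes were joined where they overlapped, both cpsf70 libraries lay above both Col0 libraries in the strongest upstream cluster of 10 of 10 genes, beside 54% of 1471 genes and 65.1% of the 10% of genes with the most tags. Each cluster was taken by its mean over the 4 libraries, cpsf70 included, so the choice was not independent of the values compared. The count was added after the data had been seen and has no test. For LHCA3 it used chr1:22701159-22701241, centred 106 nt before the main end. The chief cpsf70 part of that cluster, with 154 and 147 TPM, lay 92 nt before the main end. It counted as end tags in the upstream share, while the Col0 cluster that overlaps it, 114 nt before the main end, counted as upstream. Another choice could differ. In LHCA2 the cluster counted lay 361 nt before the main end, with 35.1 and 22.9 TPM in Col0 against 43.3 and 79.4 TPM in cpsf70. By the Col0 values the strongest upstream cluster of LHCA2 was the one 708 nt before the main end. That cluster had 49.1 and 23.7 TPM in Col0 against 42.5 and 62.4 TPM in cpsf70 and overlapped. No sequence was used, so whether these tags come from cleaved ends or from other runs of A was not tested.

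**Figure D4:**
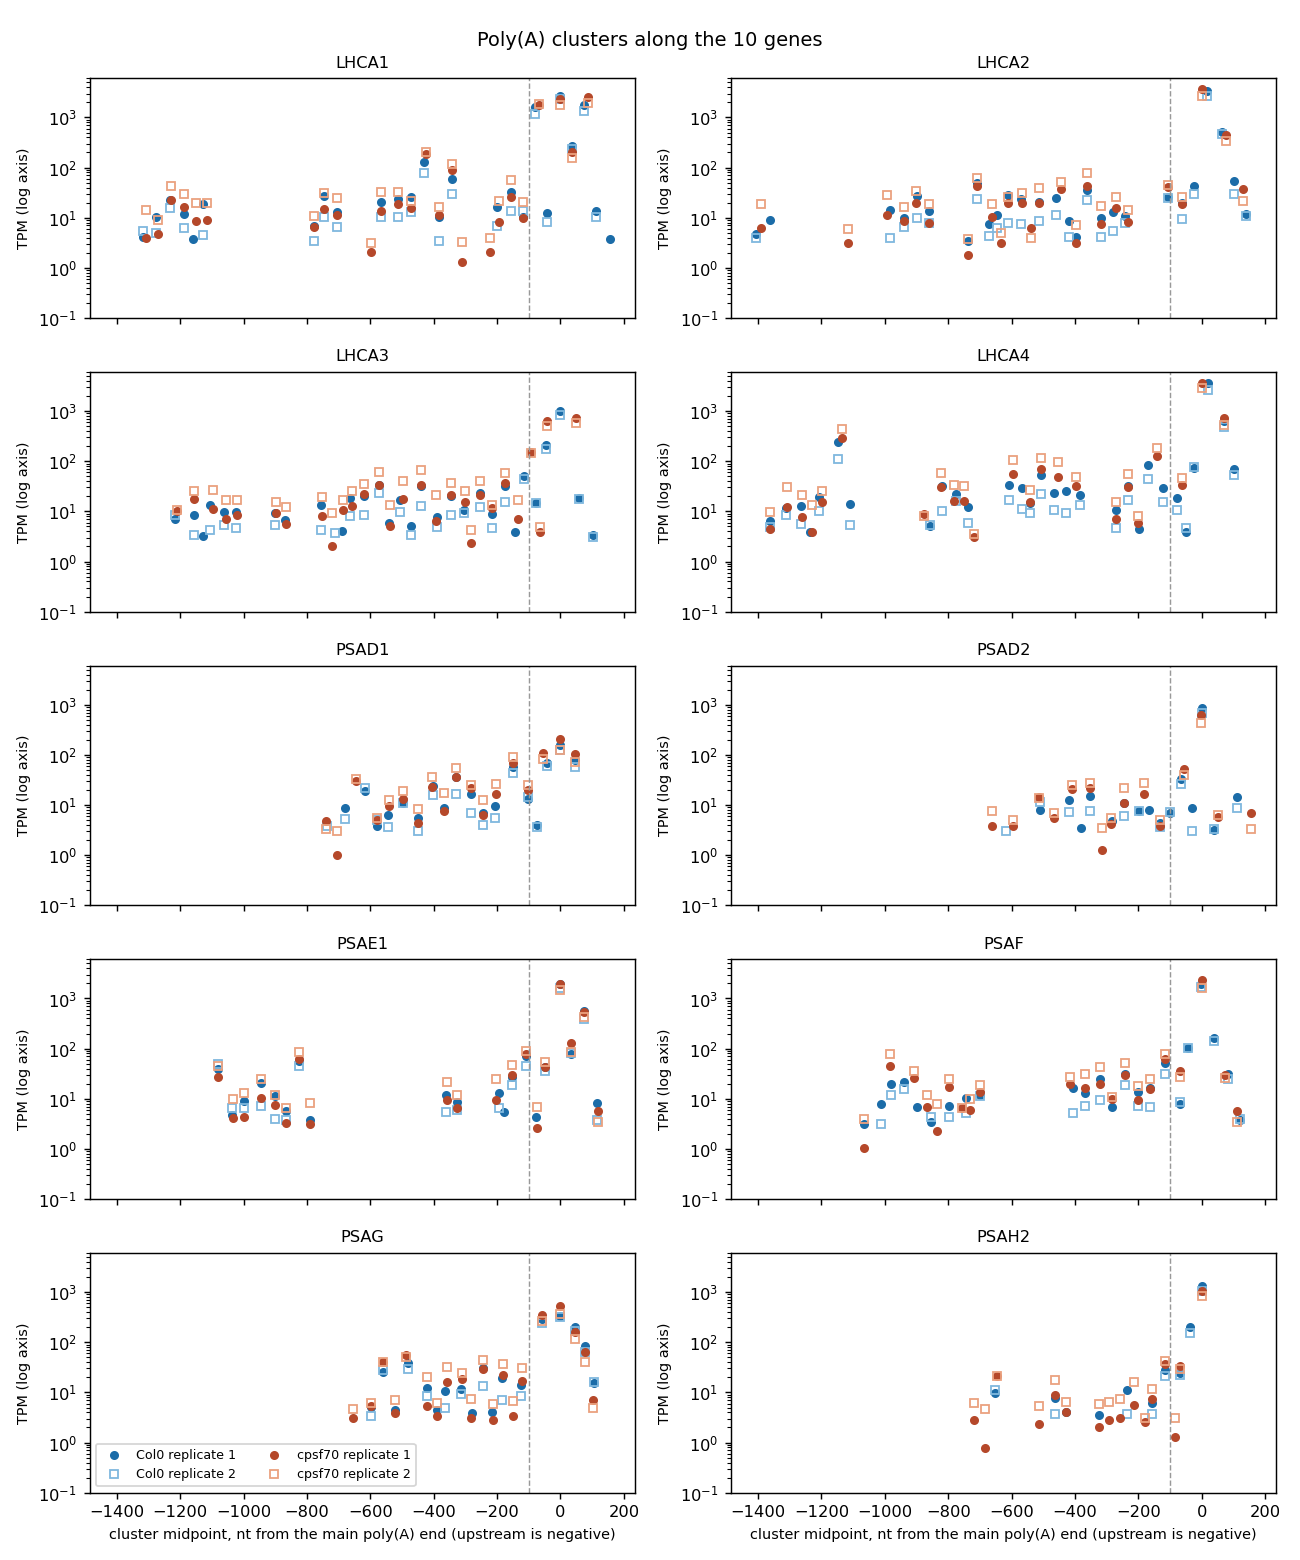
Every listed poly(A) cluster of the 10 genes, by the distance of its midpoint from the main end (nt, upstream negative) and its TPM (log axis) in each library; the dashed line marks 100 nt upstream. Most tags stand near 0, LHCA4 has a second strong cluster at least 1134 nt upstream, and the upstream points of cpsf70 replicate 2 tend to be the highest.

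At the 3′ end itself, several genes used more than 1 closely spaced cluster. To compare them, clusters of both genotypes were joined only where they overlapped, a description added after the data had been seen and given with no test. The strongest end cluster held a share of the gene's tags that did not overlap between genotypes in 5 of 10 genes, beside 39.8% of 9633 genes and 67.1% of the 10% of genes with the most tags. The median share of the strongest cluster was 73.8% and 77.3% in Col0 and 71.7% and 60.5% in cpsf70.

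LHCA1 had 3 end clusters of similar size. The middle one at chr3:20339603-20339652 held 39.5% and 43.8% of its tags in Col0 and 31.7% and 27.3% in cpsf70. The cluster beyond it, at chr3:20339504-20339578, held 26.2% and 25.8% in Col0 and 34.6% and 30.5% in cpsf70, and the one before it, at chr3:20339659-20339733, held 23.7% and 21.6% in Col0 and 24.3% and 28.5% in cpsf70. The middle cluster was thus the lower one in both cpsf70 libraries and both flanking clusters the higher ones, and none of the 3 overlapped between genotypes. In TPM the middle cluster had 2682 and 2339 in Col0 and 2326 and 1772 in cpsf70.

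PSAG had 4 end clusters with a mean share of at least 5% of its tags over the 4 libraries. Of these 4, the ones farthest downstream held less of its tags in cpsf70. That at chr1:20802678-20802712 held 18.0% and 18.5% in Col0 and 12.0% and 10.5% in cpsf70. That at chr1:20802650-20802676 held 7.43% and 6.78% in Col0 and 4.87% and 3.69% in cpsf70. Neither overlapped between genotypes. The strongest PSAG cluster held 29.97% and 34.5% in Col0 and 39.4% and 33.0% in cpsf70 and overlapped.

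LHCA3 showed how much the bounds matter. Its strongest Col0 cluster was chr1:22701283-22701330, with 1012 and 822 TPM, next to chr1:22701242-22701280 with 208 and 176 TPM. The cpsf70 tables place clusters at chr1:22701299-22701410, with 740 and 567 TPM, and at chr1:22701242-22701285, with 643 and 494 TPM. The upstream cluster of the pair has more tags in cpsf70, but its bounds there reach into those of the strongest Col0 cluster, so a shift of cleavage and a shift of the bounds cannot be told apart. Joined together, the end held 76.1% and 82.4% of the LHCA3 tags in Col0 and 73.7% and 57.7% in cpsf70. The next cluster upstream, at chr1:22701159-22701241, lies outside this overlap and had 68.5 and 58.0 TPM in Col0 against 165 and 169 TPM in cpsf70, with 4.20% and 4.69% of the tags against 8.80% and 9.19%.

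PSAH2 carried an end cluster that was listed in Col0 alone. At chr1:19455617-19455641, 38 nt before the main end, both Col0 tables gave tags, 203 and 155 TPM or 12.5% and 12.3% of the gene, and neither cpsf70 table lists a cluster that overlaps it. The neighbours on either side were listed in both genotypes, with the main cluster at 1324 and 1040 TPM in Col0 against 1062 and 833 TPM in cpsf70. Of all nuclear clusters listed in both Col0 tables with a mean of at least 10 TPM, 6.51% had no overlapping cpsf70 cluster, and 1.42% the other way round. On the 10 genes the counts were 3 of 118 and 0 of 144. The others were chr3:17493359-17493372 of LHCA4, with 69.5 and 54.2 TPM, and chr1:753280-753328 of PSAD2, with 14.3 and 8.93 TPM. Since clusters were drawn separately for each genotype, absence from both cpsf70 tables is 1 event and not 2.

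Binding of CPSF70 and m6A were read from the authors' peak lists, which hold no strand, with folds as the authors gave them. All 10 genes had an m6A peak in both Col0 replicates, beside 72.2% of all 9975 genes and 69.5% of the 10% of genes with the most tags. With peaks of a -log10 p of at least 10 this fell to 7 of 10, beside 70.3% of all genes. The m6A peaks had low folds. The highest fold per gene lay between 1.83 (LHCA2) and 2.31 (LHCA1) in replicate 1 and between 1.4 (LHCA4) and 1.79 (PSAE1) in replicate 2, below the medians over all genes with a peak of 4.09 and 5.40 and over the 10% of genes with the most tags of 2.58 and 2.79. In replicate 1 the peaks covered 57.6% to 84.1% of the gene, and in replicate 2 13.4% to 37.8%, beside medians of 15.2% and 14.1% for all genes with a peak and 29.2% and 18.8% for those among the 10% with the most tags. The peaks of replicate 1 were wide, with a median of 672 nt against 357 nt over all peaks, while those of replicate 2 were narrower than most, with 284 nt against 355 nt.

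Within this frame the 2 replicates placed the m6A peak differently among the genes. Replicate 2, the narrower one, put its peak on or next to the main end in LHCA1 (chr3:20339542-20339977), LHCA2 (chr3:22746878-22747219), LHCA3 (chr1:22701075-22701302), LHCA4, PSAE1 and PSAF. In PSAD1, PSAD2, PSAG and PSAH2 the peak of replicate 2 lay inside the gene, with its centre 547, 567, 507 and 216 nt before the main end. PSAF had a second peak in both replicates, at chr1:11215594-11215993 and chr1:11215730-11215941, which overlaps its proximal site at chr1:11215577-11215982. Counting peaks within 50 nt of the main end gave 10 of 10 genes in replicate 1 and 6 of 10 in replicate 2, beside 66.4% and 67.1% of all genes. The PSAH2 peak of replicate 2 fell just outside this window, as it ended at 19455615 and the main end lay at 19455667.

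CPSF70 CLIP peaks lay on 9 of 10 genes in both replicates, beside 44.3% of all genes and 72.0% of the 10% of genes with the most tags. With peaks of a -log10 p of at least 10 this was 7 of 10, beside 9.59% and 28%. PSAD1 had 2 peaks in replicate 1 and 0 in replicate 2. The highest folds of PSAG were 7.13 and 7.97, from a peak across its main end (chr1:20802697-20802786 and chr1:20802714-20802795). PSAD2 followed the same layout, with a peak across its main end at chr1:753362-753425 and chr1:753363-753426 and folds of 7.38 and 6.62. In PSAE1 the highest peak, with folds of 6.15 and 5.34, lay just beyond the main end. In both replicates 9 genes had a peak within 50 nt of the main end, and PSAD1 had one in replicate 1, beside 28.2% and 31.1% of all genes and 53.2% and 58.3% of the 10% of genes with the most tags. Tag abundance moves with these shares, and its part was not tested further.

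PSAH2 differed from PSAG and PSAD2 in where its highest CLIP peak lay. That peak, with folds of 6.60 and 7.23, was centred 200 nt before the main end (chr1:19455438-19455497 and chr1:19455428-19455506). A second peak, with folds of 4.06 and 4.20, covered chr1:19455568-19455636 and chr1:19455572-19455642 and overlapped the cluster listed in Col0 alone. The m6A peak of PSAH2 in replicate 1, chr1:19454951-19455640, overlapped that cluster too, while that in replicate 2 ended at 19455615, short of it.

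The LHCA genes had their CLIP peaks spread over the gene, and so had PSA genes such as PSAF, with 4 and 3 peaks. LHCA2 had 5 peaks in each replicate, and each overlapped one of the other replicate. LHCA1 had 5 and 6, and its highest peak in replicate 1 (fold 5.84) lay 112 nt before the main end, while that in replicate 2 (fold 4.23) lay 690 nt before it. In LHCA4 a peak at chr3:17494683-17494821 in replicate 1 and chr3:17494684-17494821 in replicate 2, with folds of 2.85 and 3.18, lay inside its proximal site and upstream of its strong upstream cluster, without touching it. An m6A peak of replicate 1 alone (chr3:17494544-17494832) spans both. PSAF too had a CLIP peak inside its proximal site in both replicates, at chr1:11215802-11215872 and chr1:11215814-11215869, with folds of 5.17 and 3.44.

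How many CLIP peaks of these genes lie on m6A depended on the m6A replicate. With the wide peaks of m6A replicate 1, 29 of 31 and 27 of 29 CLIP peaks (93.5% and 93.1%) overlapped m6A, beside 37.6% and 42.8% of all nuclear CLIP peaks. With m6A replicate 2 the numbers were 14 of 31 and 14 of 29 (45.2% and 48.3%), beside 35.6% and 41.2%. The peaks of m6A replicate 1 cover 57.6% or more of each gene, and those of replicate 2 at most 37.8%.

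**Figure D5:**
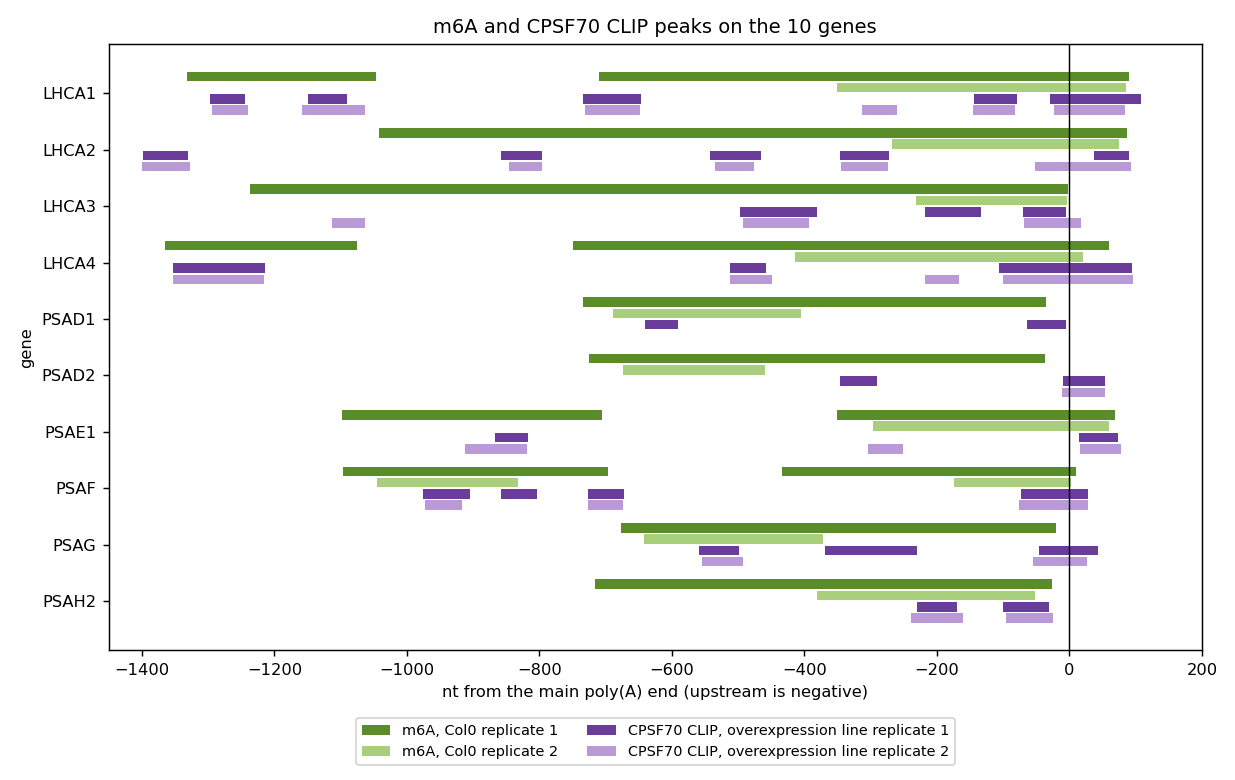
m6A peaks (Col0, 2 replicates) and CPSF70 CLIP peaks (overexpression line, 2 replicates) on each gene, by distance from its main poly(A) end in nt, upstream negative; each bar spans 1 peak. A CLIP peak touches or flanks the main end in 9 genes in both replicates, m6A replicate 1 covers most of each gene, and PSAD1 has no CLIP peak in replicate 2.

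None of the other genes of the pathway passed the test. Of 8 other nuclear photosystem I genes, 3 totals were above 0 and 5 below, none called by limma after Benjamini-Hochberg adjustment and 0 at an unadjusted p below 0.05. The extremes were PSAL (1093 and 835 TPM in Col0, 1241 and 1119 TPM in cpsf70, log2 change 0.30) and LHCA6 (25.2 and 18.3 TPM against 12.9 and 12.3 TPM, log2 change -0.73), an antenna protein that links photosystem I to the NDH complex. For site use 1 of 7 was above 0 and 6 below, from PSAE2 at -1.36 to PSAH1 at 0.48, and 1, PSAN (-1.11), had an unadjusted p below 0.05. For upstream tags 6 of 6 were above 0, from PSAH1 at 0.35 to PSAE2 at 1.44. PSAE2 and PSAH1 are paralogs of PSAE1 and PSAH2, and reads shared between paralogs, as between PSAD1 and PSAD2, could be split by the mapping.

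The carriers that give electrons to and take them from photosystem I had 4 totals above 0 and 2 below, from LFNR1, a ferredoxin-NADP reductase, at -0.24 to the ferredoxin FD1 at 0.23. The assembly factors had 2 above and 2 below, from Y3IP1 at -0.39 to PSA3 at 0.03. Site use could be tested in 2 carriers, LFNR1 (-0.79) and LFNR2 (-0.57), and in 1 assembly factor, PSA2 (-0.98, unadjusted p 0.0430), with an adjusted p of 0.265 in limma. Upstream tags had changes above 0 in 4 of 4 carriers, from 0.72 (LFNR2) to 0.92 (FD2), and in PSA2 (0.98). None passed the adjusted threshold.

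After subtraction of each gene's mean, the median of the 10 genes was 0.13 and -0.24 in the Col0 replicates and 0.19 and -0.04 in the cpsf70 replicates (log2 of TPM + 1). Of 9965 other genes, EIF4A-III, LPD1 and ADS2 came nearest to it, with a mean absolute difference of 0.010, 0.011 and 0.013 over the 4 libraries. EIF4A-III stood at 31.9 and 24.01 TPM in Col0 against 33.2 and 28.4 TPM in cpsf70.

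Some tags in these windows could belong to other genes. PSAE1 overlaps AT4G28755 and PSAG contains AT1G55673 on the same inferred strand, and their tags were counted to PSAE1 and PSAG, which had more tags at the 3′ end. A cluster in the window of PSAD2, with 22.2 to 27.2 TPM, was counted to its neighbour AT1G03140. On the opposite strand, PSAD1 had 3 clusters in Col0 replicate 2 of at most 8.70 TPM, and PSAE1 had 1 in each Col0 replicate of at most 6.06 TPM.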

How the data were processed

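Per the labels' protocols, poly(A) RNA was used for all libraries, poly(A) ends were sequenced by A-seq2, and CLIP used formaldehyde, RNase T1 and anti-FLAG beads. Cutadapt 1.18, HISAT2 2.1.0 and MACS2 2.2.5, with the TAIR10 build, appear in the submitters' processing notes, without settings. The authors deposited TPM per poly(A) cluster and library, with bounds shared within a genotype. Col0 tables and cpsf70 replicate 2 list clusters of at least 3 TPM. cpsf70 replicate 1 lists the same clusters as replicate 2, with values down to 0. The authors' peak lists give a fold and a -log10 p-value per peak and replicate, per the file headers. The deposited RNA-seq table gives FPKM, a fold (ratio) and a p-value for preselected genes. By their internal names, both cpsf70 poly(A) tables carry the same one, and those of the CLIP tables give the replicates the other way round. Sample titles were followed. The 2 CLIP samples of Col0 were not analysed here.

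From these values, nuclear clusters were assigned to RefSeq genes (assembly TAIR10.1, names and spans) extended by 200 nt, on a strand inferred from the tags, and joined across gaps of at most 24 nt. Sites listed in all 4 tables entered the totals. limma 3.58.1 (R 4.3.3) was fitted to log2(TPM + 1), 2 against 2 libraries, across all genes or sites, with eBayes, 2-sided p-values and Benjamini-Hochberg adjustment at 0.05. Changes on this scale understate those of low values. The fits were run on simulated data with an equal spread for all features. That setting differs from these data, so the run does not show how the fits perform here. Peaks counted where they overlapped the gene by at least 1 nt, without strand. An exact permutation test of 2 against 2 libraries cannot go below 0.333. The members, the lists of other genes and the measures were chosen with earlier results of these data known. All 10 genes are described. Of other lists, counts, any call and the largest change each way are named, and the 3 genes nearest in pattern. Alternatives were another pseudocount, no filter, rescaling, other joins and windows, each library left out, a replicate block, robust eBayes and, added after the data had been seen, clusters shared by both genotypes. Reads could not be taken as whole, so no count test was run.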

Additional observations from a re-analysis of the deposited data

How the results depend on the processing

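The values below are log2 changes or numbers of calls by limma after Benjamini-Hochberg adjustment; the cause of a difference was not tested unless given. Over all genes, 177 totals, 301 sites, 9 values of site use and 65 of upstream tags were called. With absent values set to 0 these were 1442, 4803, 312 and 2035, from more features tested, and rescaling by median ratios gave 44 totals and 34 sites. A pseudocount of 3 TPM gave 610 sites, 4 of them on the 10 genes, and 14 of site use. Joining around midpoints gave 459 sites and 515 of site use, called 1 of the 10 totals (LHCA3, 1.89) and 2 of the 10 site uses, and moved the median site use to -0.10, with LHCA1 at 0.83, LHCA3 at 3.53, LHCA4 at 0.081 and PSAE1 at 0.083. Joining within 50 nt gave 5 of site use. Robust eBayes gave 572 sites, 2 of them on the 10 genes, and 16 of site use. Upstream tags gave 299 calls with a zone of 50 nt, 19 with clusters of at least 3 TPM and 5 with clusters of at least 10 TPM, and 0 of the 10 genes in each. Over clusters that overlap one of the other genotype, an alternative added after the data had been seen, 89 totals, 0 of site use (68 toward the distal and 247 toward the proximal site at an unadjusted p below 0.05) and 3 of upstream tags were called, and PSAH2 had -0.21 for its total, -1.01 for site use and 1.24 for upstream tags. With peaks of a -log10 p of at least 10, m6A and CLIP peaks each lay on 7 of 10 genes.

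Leaving out 1 library at a time gave 122 to 162 totals, 179 to 332 sites, 0 to 31 of site use and 8 to 162 of upstream tags, with 0 or 1 of the sites on the 10 genes called. The median of the 10 genes ranged from -0.075 to 0.31 for totals and from 0.31 to 1.34 for upstream tags, and that of site use from -1.40 to -0.49. Totals changed sign, from -0.099 to 0.24 for LHCA2, -0.056 to 0.45 for LHCA4, -0.11 to 0.23 for PSAE1 and -0.12 to 0.21 for PSAF; the values below 0 came without Col0 replicate 2 or cpsf70 replicate 1. Without cpsf70 replicate 2, site use of PSAE1 was 0.14 (lowest -0.92), and upstream tags were -0.15 for LHCA3 (highest 1.09), -0.13 for PSAD1 (highest 0.95) and -0.12 for PSAE1 (highest 0.88). CLIP peaks lay on 10 and 9 of 10 genes in single replicates.

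The labels do not say that replicate numbers pair libraries, and same-numbered deviations correlated with 0.27 for totals, 0.20 for sites, 0.08 for site use and -0.11 for upstream tags. With the replicate block 1 total, 0 sites, 59 of site use and 122 of upstream tags were called. Pairs crossed gave 0 of site use and 12 of upstream tags. The changes of PSAH2 and PSAD2 in upstream tags kept an adjusted p above 0.05 in every setting run. Only 2 libraries per genotype limit what could be called, as does the single standard error that all gene totals, or all sites, shared in the main fits.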
